A study of Mus musculus with 12 samples.

Results

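Haemoglobin mRNA is made in erythroid cells and remains in young red cells, so transcripts of the adult globin genes in a piece of organ can come with the blood it holds. The 6 symbols considered were the alpha-globin genes Hba-a1 and Hba-a2, the beta-globin genes Hbb-b1, Hbb-b2 and Beta-s, and Alas2. They were chosen by their names, and those with an FPKM value were used. The levels in these libraries were already known, so all values below are descriptions. Of these 6 symbols, 3 had values (Hbb-b1, Beta-s and Alas2) among 22276 symbols in the table. Hbb-b2 was listed without a value in every library, and Hba-a1 and Hba-a2 were not analysed here. The sum of Hbb-b1 and Beta-s is called summed beta-globin below.

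The 12 RNA-seq libraries came from white fat (WAT), brown fat (BAT), liver and quadriceps muscle of male C57BL/6J mice aged 17 weeks, with 1 library for each organ and group. NCD-veh mice ate normal chow and received vehicle. HFD-veh mice ate a high-fat diet from 8 weeks of age and received vehicle, and HFD-ncls mice ate the same diet and received narciclasine (ncls), a plant alkaloid, weekly by oral gavage from 10 weeks of age. No group carried a transgene or deletion, how many mice stand behind a library is not given in the sources used here, and the labels do not say which libraries came from the same mouse. FPKM is the number of fragments per kilobase of transcript, scaled to the mapped total, so levels can be compared between genes per length. Values in threes below are given as NCD-veh, then HFD-veh, then HFD-ncls. With 1 library per group there is no spread between animals and no test.

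In red cells, alpha and beta chains pair into haemoglobin, and each chain holds a haem. Alas2 is the erythroid form of 5-aminolevulinate synthase, the enzyme that opens haem synthesis, and its housekeeping relative Alas1 opens the same pathway in other cells. C57BL/6 mice carry the Hbb single haplotype, in which a pair of neighbouring adult genes encodes the same beta chain. Beta-s is an older name from that haplotype, which RefSeq now lists as a synonym of Hbb-bs.

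The sequences below are shown because they set how far reads from the adult beta-globin loci can be told apart. On mm9 the adult beta-globin genes lie on the minus strand of chromosome 7, at chr7:110975048-110976610 (Hbb-b1 in the GENCODE annotation) and chr7:110961038-110962510 (Hbb-b2 in GENCODE), with starts 14010 bases apart. The RefSeq (GRCm38) promoter of Hbb-bs matched mm9 at 1 place on that chromosome, chr7:110976393-110976692, which is the locus GENCODE calls Hbb-b1, and that of Hbb-bt matched chr7:110962388-110962687, the locus GENCODE calls Hbb-b2. The FPKM values come with symbols and without positions, so which locus the Hbb-b1 entry counts was not settled here. The comparison below is thus between loci, and not between the Hbb-b1 and Beta-s entries. Exon 2 of both loci, 223 coding bases at chr7:110975962-110976184 and chr7:110961953-110962175, was the same base for base, and is printed 5′ to 3′ in lower case since no base differs.
Exon 2 of both loci: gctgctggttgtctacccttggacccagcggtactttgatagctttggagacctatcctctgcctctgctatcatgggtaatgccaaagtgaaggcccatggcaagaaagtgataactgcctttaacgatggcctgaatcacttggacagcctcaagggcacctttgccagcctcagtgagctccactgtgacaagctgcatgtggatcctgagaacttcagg
Over the whole coding sequence of 444 bases, in 3 exons, 1 base differed, and the longest identical run was 416 bases. The difference was C417T, counted from the first base of the start codon, in exon 3, with the GENCODE Hbb-b1 base first. It did not alter the amino acid. The stretches around it, coding bases 392 to 442, are printed with that base in capitals and lie at chr7:110975181-110975231 and chr7:110961172-110961222.
Hbb-b1 locus (GENCODE name): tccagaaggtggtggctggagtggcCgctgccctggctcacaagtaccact
Hbb-b2 locus (GENCODE name): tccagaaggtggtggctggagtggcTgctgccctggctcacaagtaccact
Of all windows of 50 bases in the 778-base Hbb-b1 transcript, 52.3% occurred whole in the 703-base Hbb-b2 transcript, and 58.3% of the latter's windows occurred in the former. A window of 100 bases still gave 48.7% and 54.8%. A read from those windows fits both genes equally well. Alas2, which is unrelated to the globins in sequence, lies at chrX:146981918-147005181 on the plus strand.

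Summed beta-globin was highest in WAT and lowest in muscle. In WAT it was 569, 490 and 474 FPKM. In BAT the levels were 469, 335 and 292 FPKM. The NCD-veh library was thus highest in both adipose depots and HFD-ncls lowest. In liver the summed level was 283, 122 and 145 FPKM, and in muscle 77.2, 98.5 and 82.2 FPKM. Here NCD-veh was highest in liver and lowest in muscle. The 3 libraries of an organ did not overlap with those of any other organ, although WAT and BAT (474 against 469 FPKM), and BAT and liver (292 against 283 FPKM), came close. The mean over the 3 libraries was 511 ± 51.1 (SD) in WAT, 365 ± 92.1 in BAT, 184 ± 86.9 in liver and 86.0 ± 11.1 in muscle, where the SD covers diet, treatment and animal together. The bars of summed beta-globin by organ and group show these steps. As a share of all FPKM in a library, summed beta-globin ran from 0.0213% in NCD-veh muscle to 0.174% in NCD-veh BAT. On that scale BAT (0.114% to 0.174%) overlapped with WAT (0.135% to 0.162%), and liver (0.0255% to 0.0548%) with muscle (0.0213% to 0.0272%). The sum of all FPKM was 480345 to 516221 in liver against 254403 to 362645 elsewhere, so the organs stand apart per FPKM and overlap as a share of the total, with the same order of means. In such bulk tissue, fewer red cells and less globin RNA per red cell cannot be told apart, and which cells held the beta-globin RNA was not tested.

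**Figure D1:**
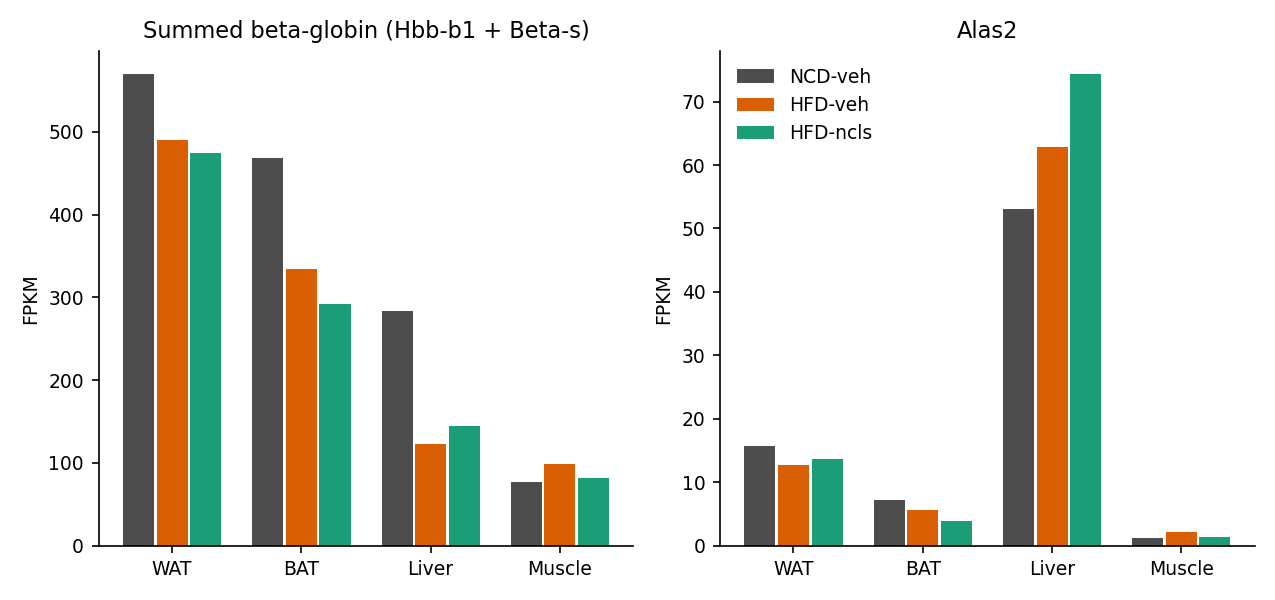
Summed beta-globin (left) and Alas2 (right) in FPKM for each of the 12 libraries, by organ on the x axis and by group in colour, 1 library per bar. Beta-globin is highest in WAT (474 to 569 FPKM), whereas Alas2 is highest in liver (53.1 to 74.3 FPKM).

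Hbb-b1 carried most of the summed level in every library. Its FPKM was 569, 483 and 474 in WAT, 447, 326 and 268 in BAT, 260, 114 and 145 in liver, and 77.2, 83.7 and 67.9 in muscle. From the size of 1 fragment in each library, these levels correspond to about 1364 (HFD-ncls muscle) to 9206 (NCD-veh WAT) fragments. Counting noise of single fragments is therefore small beside the steps between organs.

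Beta-s was either clearly detected or at next to nothing. It was at 7.11 to 23.9 FPKM in 8 libraries and under 0.01 FPKM in the other 4. In WAT its FPKM was 0.00436, 7.11 and 0.00450, so the entry was clearly detected in HFD-veh alone there. In BAT all libraries had it, with 21.2, 8.23 and 23.9 FPKM. In liver it was at 22.7, 8.14 and 0.00704 FPKM, and in muscle at 0.00806, 14.8 and 14.3 FPKM. The Beta-s entry was clearly detected in all 4 organs of HFD-veh and in all 3 groups of BAT, while no group or organ had it near 0 throughout. No library lay between 0.01 and 7.11 FPKM. With the 778-base transcript length, the 4 low values correspond to 0.0651 to 0.156 of a fragment, less than a single fragment can give. The 8 others correspond to about 112 (HFD-veh WAT) to 463 (HFD-ncls BAT) fragments. Beta-s made up 0.000765% of summed beta-globin in NCD-veh WAT and 17.4% in HFD-ncls muscle. In the 8 libraries that had it, that share was 1.45% in HFD-veh WAT, 2.46% to 8.17% in BAT, 6.65% and 8.01% in liver, and 15.1% and 17.4% in muscle. The share was thus highest where summed beta-globin was lowest. How the fragments that fit both loci were divided between the entries is not given in the sources used here, and its part in these levels and shares was not tested.

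**Figure D2:**
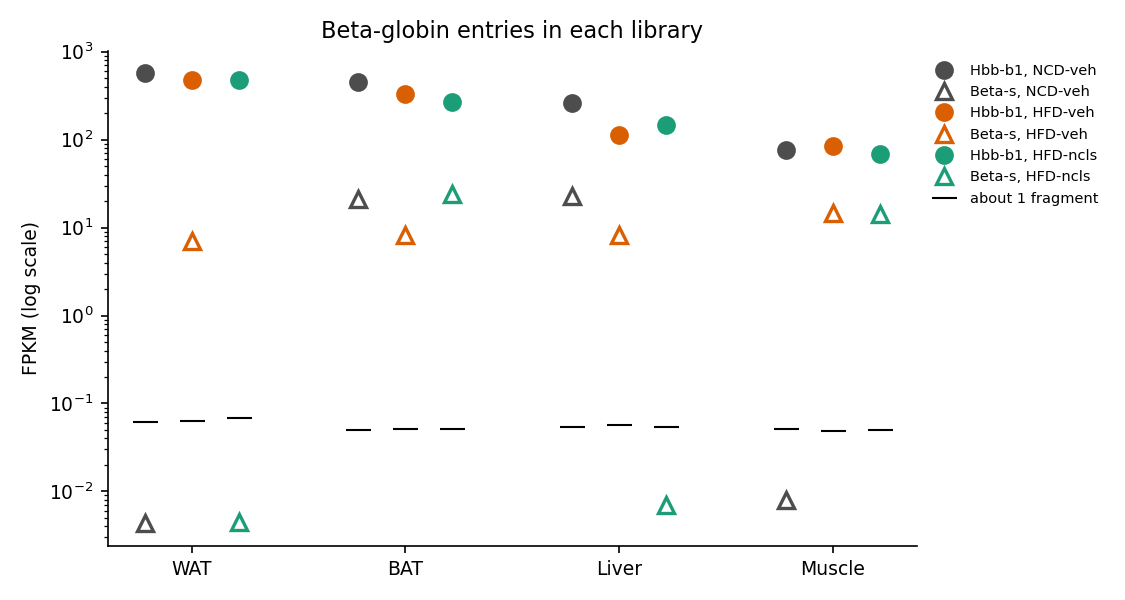
FPKM of Hbb-b1 (circles) and Beta-s (triangles) in each library on a log scale, by organ and coloured by group, with a short black line at the FPKM of about 1 fragment for a 778-base transcript. Hbb-b1 stays between 67.9 and 569 FPKM, while 4 of the 12 Beta-s values lie under the line and the other 8 at 7.11 to 23.9 FPKM.

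Alas2 followed another order of organs than beta-globin. Its FPKM in liver was 53.1, 62.9 and 74.3. In WAT it was 15.6, 12.8 and 13.6 FPKM, in BAT 7.23, 5.66 and 3.86 FPKM, and in muscle 1.24, 2.09 and 1.34 FPKM. Liver was thus highest for Alas2, with no overlap between any pair of organs, while it was only the third of the 4 organs for beta-globin. The means over the 3 libraries were 63.4 ± 10.6 (SD) in liver, 14.0 ± 1.48 in WAT, 5.58 ± 1.69 in BAT and 1.56 ± 0.460 in muscle.

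Set against summed beta-globin in the same library, Alas2 varied little outside liver. It came to 2.60% to 2.87% of the beta-globin FPKM in WAT, 1.32% to 1.69% in BAT and 1.61% to 2.12% in muscle. In liver it was 18.8%, 51.4% and 51.2%. The lowest liver value therefore lay above the highest of the other 9 libraries, 2.87%, and the liver values of both HFD groups lay together above NCD-veh. That last step combines a lower beta-globin level with a slightly higher Alas2 level in the HFD libraries.

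**Figure D3:**
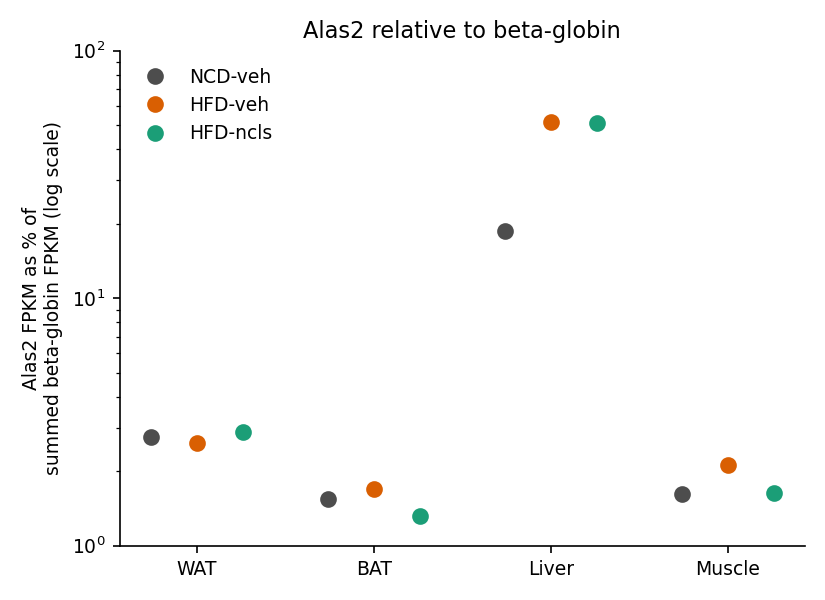
Alas2 FPKM as a percentage of summed beta-globin FPKM in each library, on a log scale, by organ and coloured by group. The 9 libraries of WAT, BAT and muscle lie at 1.32% to 2.87% and the 3 liver libraries at 18.8% to 51.4%.

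The comparison of HFD-veh with NCD-veh asks how the libraries differ by diet. Summed beta-globin in liver was 2.31-fold lower in HFD-veh, a log2 ratio of -1.21 on log2(FPKM + 0.1), and Hbb-b1 by itself gave -1.19. The median of all genes in that comparison was 0.04, and 1.39% of genes had a lower ratio than summed beta-globin. The log2 ratio of the sum was -0.22 in WAT, -0.49 in BAT and 0.35 in muscle, all within 2-fold. The Alas2 log2 ratio was -0.29 in WAT, -0.35 in BAT, 0.24 in liver and 0.70 in muscle. Alas2 thus had the same sign as beta-globin in WAT, BAT and muscle, and the opposite sign in liver. Members over 2-fold apart were 1 of 3 in WAT (Beta-s, higher), 1 of 3 in BAT (Beta-s, lower), 2 of 3 in liver (Hbb-b1 and Beta-s, both lower) and 1 of 3 in muscle (Beta-s, higher). Among all genes that reached 1 FPKM in either library, 9.11% were over 2-fold apart in WAT, 4.29% in BAT, 5.12% in liver and 4.11% in muscle. With 3 members, of which Beta-s lay under 1 fragment in several libraries, these counts say little beyond the values themselves.

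The comparison of HFD-ncls with HFD-veh, which uses the same HFD-veh libraries, asks how they differ by ncls on that diet. The log2 ratio of summed beta-globin was -0.05 in WAT, -0.20 in BAT, 0.25 in liver and -0.26 in muscle. For Hbb-b1 it was -0.03, -0.28, 0.34 and -0.30, and for Alas2 0.09, -0.54, 0.24 and -0.60. Every one of these was within 2-fold, and the largest were the lower Alas2 levels in BAT and muscle. Beta-s was over 2-fold lower in WAT and liver and higher in BAT, and it was the 1 member of 3 past that threshold in each, with none in muscle (Beta-s log2 ratio -0.05). Of all genes, 1.70% were over 2-fold apart in WAT, 1.96% in BAT, 2.31% in liver and 3.80% in muscle. In BAT, Hbb-b1 and Alas2 were each lower from NCD-veh to HFD-veh and again to HFD-ncls, and Alas2 ended at -0.89 and Hbb-b1 at -0.74 between HFD-ncls and NCD-veh. In muscle, HFD-veh held the highest level of each of the 3 members.

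**Figure D4:**
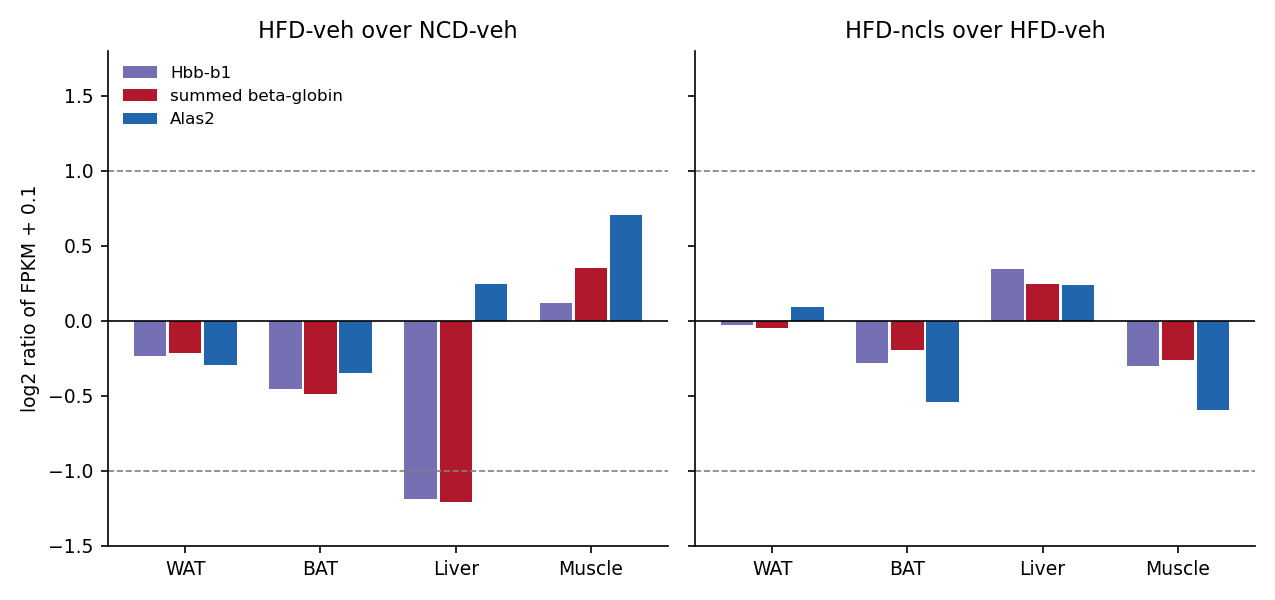
Log2 ratios of FPKM + 0.1 for Hbb-b1, summed beta-globin and Alas2 in each organ, for HFD-veh over NCD-veh (left) and HFD-ncls over HFD-veh (right), with dashed lines at 2-fold. The 2 beta-globin bars for liver on the left (-1.19 and -1.21) are the ones past 2-fold.

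Genes enriched in another organ were detected in some libraries, and their share is given here beside the members. Whether this RNA was carried from that organ or made in the sampled organ itself was not tested. The amounts below take it as carried. Over 582 liver-enriched genes, HFD-veh muscle held a median of 0.701% of the liver level, against 0.0150% in muscle of NCD-veh and 0.0126% in that of HFD-ncls. That share of liver RNA would bring 0.857 of the 98.5 FPKM of summed beta-globin and 0.441 of the 2.09 FPKM of Alas2. With it subtracted, the Alas2 log2 ratio in muscle went from 0.70 to 0.38 for HFD-veh over NCD-veh. For HFD-ncls over HFD-veh it went from -0.60 to -0.27, while those of summed beta-globin went to 0.34 and -0.25. A share of fat RNA in muscle was not computed. The WAT markers Lep, Adipoq and Retn summed to 20.8, 45.4 and 23.8 FPKM in muscle, the order of groups of summed beta-globin there. Retn alone was lowest in HFD-ncls. In WAT these markers summed to 4701, 3854 and 3629 FPKM, and the part of fat RNA in muscle beta-globin was not tested. Muscle-enriched genes (300) were at 2.65%, 1.25% and 0.380% of the muscle level in BAT, in the same order as beta-globin, and that share would bring at most 2.04 of 469 FPKM. The share of liver-enriched genes in WAT (0.113%, 0.226% and 0.487%) would bring at most 0.707 FPKM of beta-globin and 0.362 FPKM of Alas2. The BAT markers Ucp1 (740 to 770 FPKM in BAT, at most 3.92 FPKM elsewhere) and Cidea were highest in BAT, but Elovl3, also on that list, was at 18.6, 7.39 and 6.52 FPKM in BAT and 154, 41.3 and 80.1 FPKM in liver.

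The embryonic and theta-globin genes with values were at or near 0. The embryonic genes Hbb-bh1 and Hbb-bh2 were at 0 in all 12 libraries, and the theta-globin genes Hbq1a and Hbq1b reached at most 0.219 and 0.251 FPKM. Myoglobin (Mb), the oxygen store of muscle, was at 839, 609 and 745 FPKM in muscle and at 94.9, 33.1 and 8.92 FPKM in BAT, the same order as the muscle-enriched genes there. Cytoglobin (Cygb), a globin of fibroblast-like cells, was at 24.6, 29.2 and 37.6 FPKM in WAT and at most 9.14 FPKM in BAT, 5.81 FPKM in liver and 3.33 FPKM in muscle. Mb did not share the organ order of summed beta-globin, while Cygb shared it by its highest values but had the opposite order of groups within WAT.

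Among the 9 enzymes of haem synthesis, Alas1 stood out in liver. Alas1 was at 63.8, 211 and 373 FPKM there, with log2 ratios of 1.72 and 0.83, and Alas2 was higher in the same order by 0.24 and 0.24. Of the 9 genes, 1 was over 2-fold higher and none lower in HFD-veh than in NCD-veh liver, with a median log2 ratio of 0.15. Over all genes in that comparison, 5.12% were over 2-fold apart and the median was 0.04. Between HFD-ncls and HFD-veh liver none of the 9 was over 2-fold apart, with a median of 0.12. Over all genes these were 2.31% and 0.02. Urod, which makes coproporphyrinogen, was at 47.9, 52.5 and 50.8 FPKM in liver. In WAT, BAT and muscle no enzyme gene was over 2-fold apart in either comparison. In BAT 8 of the 9 were lower in HFD-veh than in NCD-veh, as were Hbb-b1 and Alas2 itself, a member of this list. The median of the 9 was -0.32, against -0.04 over all genes. The plot of haem-synthesis genes in liver shows that Alas1 stands apart from the other 8.

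**Figure D5:**
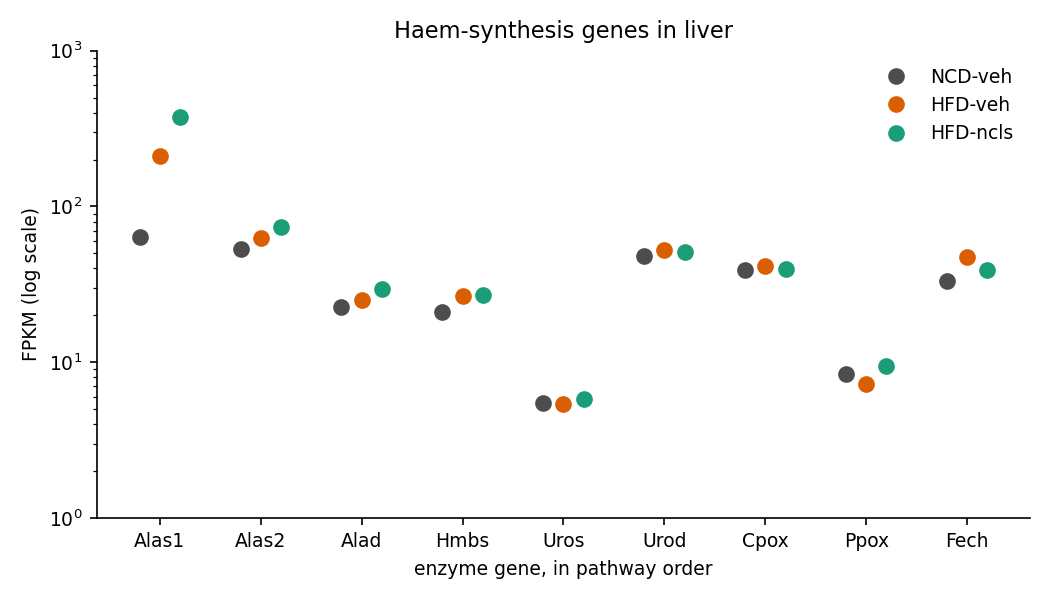
FPKM of the 9 haem-synthesis genes in the 3 liver libraries on a log scale, in pathway order, coloured by group. Alas1 spans 63.8 to 373 FPKM, Alas2 53.1 to 74.3 FPKM, and each of the others lies within 2-fold between groups.

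Other red-cell genes are given beside beta-globin because they could trace the same cells. Slc4a1, the anion exchanger band 3 of the red-cell membrane, was at 0.306, 0.0938 and 0.0900 FPKM in liver and at 0.250, 0.101 and 0.0422 FPKM in BAT, which is the direction of Hbb-b1 except between both HFD liver libraries. In WAT it was at 0.373, 0.549 and 0.490 FPKM, lowest where Hbb-b1 was highest. These are about 32.8, 9.66 and 9.65 fragments in liver and 29.6, 11.5 and 4.78 in BAT. In WAT they are about 35.2, 50.4 and 41.3 fragments. With such low numbers the steps are uncertain. Eraf, the alpha-globin chaperone, was not analysed here. Bpgm, which makes the 2,3-bisphosphoglycerate that lowers oxygen affinity, was at 41.9 to 47.4 FPKM in muscle and at most 9.27 FPKM elsewhere.

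Counted as lists, the red-cell genes gave no step like that of beta-globin in liver. Over all genes in liver for HFD-veh over NCD-veh, 5.12% were over 2-fold apart and the median was 0.04. Of 16 genes of the red-cell membrane and skeleton, 3 passed the filter in liver for HFD-veh over NCD-veh, none was over 2-fold apart, and the median was 0.15. Of 20 reticulocyte and late erythroid genes, 15 passed, with 1 over 2-fold lower (Tspan33, chosen after its value was seen, 9.83 and 4.04 FPKM), none higher and a median of 0.05. Many of these genes are also expressed by the organs, such as Aqp1, a water channel of vessels too, at 77.9 to 156 FPKM in WAT, Tmod1 at 136 to 152 FPKM in muscle, and the enzymes Prdx2 and Blvrb at up to 118 and 122 FPKM. In BAT, Tmod1 was 4.24, 2.44 and 1.17 FPKM.

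Erythroid transcription factors are given beside the high Alas2 in liver. Klf1, an activator of adult beta-globin that was named after its values were seen, was at 3.08, 3.13 and 3.50 FPKM in liver, about 109 to 127 fragments, and at most 0.111 FPKM in the other 9 libraries. Zfpm1, the GATA cofactor FOG1, was at 17.6, 11.1 and 17.0 FPKM in liver and at most 4.13 FPKM elsewhere. Lmo2 was at 15.3 to 15.8 FPKM in WAT and at most 1.46 FPKM in liver, and Gata1, the master regulator of erythroid genes, was at 0 in 10 of the 12 libraries and reached 0.0921 FPKM in HFD-ncls liver. Tal1 was at 0.985, 1.07 and 1.24 FPKM in WAT and 0.109, 0.103 and 0.129 FPKM in liver, and Gfi1b at 0.635, 0.385 and 0.586 FPKM in WAT and 0 in liver, both named after their values were seen. Of this list of 7, Klf1 and Zfpm1 were higher in every liver library than in any other library, as Alas2 was. Neither summed beta-globin nor Slc4a1 was higher in any liver library than in WAT. Which liver cells hold Alas2 was not tested.

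Genes of other blood cells and of vessels were set beside beta-globin. In liver, 11 of 12 platelet genes were lower in HFD-veh than in NCD-veh when no filter was applied, as was summed beta-globin, with Pf4 at 0.813 and 0.743 FPKM and Clec1b at 3.60 and 3.21 FPKM. Only 1 of the 12, Clec1b, reached 1 FPKM in a liver library, with a log2 ratio of -0.16 against a median of 0.04 over all genes. Of 13 neutrophil genes, 10 were also lower in HFD-veh liver, 0 higher and 3 equal. Of 10 lymphocyte genes, 7 were higher there and 3 lower. In WAT 8 of the 12 platelet genes were lower and 3 higher, and Pf4 was at 65.1, 46.2 and 53.1 FPKM. The share of all genes lower without a filter was not computed, so these unfiltered counts have no background beside them. The neutrophil gene S100a8 had the opposite direction to beta-globin in WAT, with 4.19, 34.7 and 35.5 FPKM, and the same direction in liver, with 1.24, 0.433 and 1.04 FPKM. S100a9 was at 2.62, 5.07 and 0.523 FPKM in WAT. Of 7 lymphocyte genes that passed the filter in WAT, 5 were over 2-fold lower in HFD-veh than in NCD-veh, where 9.11% of all genes were over 2-fold apart. Of 5 that passed for HFD-ncls over HFD-veh, 3 were over 2-fold higher, against 1.70% of all genes over 2-fold apart. Ebf1, also a gene of adipocytes, was at 73.8, 40.6 and 38.1 FPKM. Endothelial genes were higher in HFD-veh than in NCD-veh for 10 of 11 in WAT and 10 of 11 in BAT, the direction opposite to beta-globin. Their median log2 ratio was 0.57 in WAT and 0.33 in BAT, against 0.03 and -0.04 over all genes. Cdh5, the cadherin of vessel walls, was at 54.8 and 92.3 FPKM in WAT, and Pecam1 at 40.6 and 67.3 FPKM. In liver 7 of 9 endothelial genes were lower, with a median of -0.21, against 0.04 over all genes. The part of vessels or of these blood cells in the beta-globin values was not tested.

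Genes of proteins that clear free haemoglobin and haem were expressed in liver and, for some of them, in other organs too. Haptoglobin (Hp), which binds haemoglobin, was at 4311, 1601 and 1868 FPKM in liver, and haemopexin (Hpx), which binds haem, at 6697, 1915 and 2381 FPKM. Both were named after their values were seen. They were the 2 genes of 11 on the disposal list over 2-fold lower in HFD-veh than in NCD-veh liver. In liver they had the same order of groups as summed beta-globin. The median of those 11 was -0.31, against 0.04 over all genes, of which 5.12% were over 2-fold apart. In WAT, Hp was at 1465, 1707 and 2272 FPKM, the reverse of the order of summed beta-globin there. The transferrin gene (Trf) was at 7104, 4458 and 5112 FPKM and the ferritin heavy chain (Fth1) at 1359, 1286 and 1323 FPKM in liver. In WAT, Trf was at 1204, 485 and 490 FPKM. Hepcidin (Hamp), the hormone that limits iron uptake, was at 3601, 3110 and 4410 FPKM in liver. Hfe2, a regulator of hepcidin, was at 42.0, 31.9 and 38.7 FPKM in liver and higher in muscle, at 285, 319 and 281 FPKM.

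Likeness to summed beta-globin was measured over the 12 libraries with the mean of each organ subtracted. Among 12842 genes, the 10 with the highest Pearson r were Isyna1 (0.936), 1110065P20Rik, Ano10, Avpr1a, Zfp687, Eif1, Zfp574, Bpgm (0.915), Mt2 and Stk40 (0.909). The values of an organ share their libraries and its 3 groups, the step in liver weighs most in the sum, and only 2 of the 10 stayed in the first 10 with Spearman correlation, so the list describes these libraries and little else. Bpgm, the 1 red-cell gene among them, was at 6.33, 4.66 and 5.27 FPKM in liver. Alas2 came at rank 3427 with r 0.234.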

How the data were processed

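Total RNA of the 12 libraries was sequenced on the Illumina platform. According to the submitters' processing notes and the study's methods, reads were aligned to mm9 with TopHat, and the authors deposited FPKM values from Cufflinks on RefSeq genes, 1 value per symbol and library. How Cufflinks handled reads that fit several genes, the read length and any scaling between libraries are not given in the sources used here. FPKM is not a count, and depth was estimated: low FPKM values of genes with 1 annotated transcript of at least 1.5 kb lie on steps, and the size of 1 fragment from 146 to 193 genes per library gave about 18600000 to 26200000 fragments. Fragment numbers above are therefore approximate, and no test or interval rests on them.

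Groups were taken from the sample labels. Ratios used log2(FPKM + 0.1), genes needed an FPKM of at least 1 in either library, and differences were counted past 2-fold. Of 22276 symbols, 68 had no value in any library, Hbb-b2 among them. The planned alpha to beta ratio and share of Hba-a1 could not be computed, since alpha-globin was not analysed here. Genes were named if they were members, among the 2 genes of a list with the highest mean FPKM, among 6 erythroid genes set by name, or among the 10 most like summed beta-globin, and others are said to be named after their values were seen. Some of these genes are withheld and not reported here. Members and lists were chosen with earlier results of these data known. An organ-enriched gene had a mean FPKM of at least 10 there and at least 20 times the median elsewhere. The share of another organ's RNA was the median ratio over such genes to the source organ's library of the same group. It was computed for liver RNA in muscle and WAT, and for muscle RNA in BAT and liver. Sequences came from mm9 (NCBIM37) with GENCODE M1, and names from RefSeq. Alternatives changed the pseudocount, the filter, the scaling, the entries summed and the share of another organ. Computations used Python 3.11.15, numpy 2.4.6, pandas 2.3.3 and matplotlib 3.10.9, and the comparison and likeness steps were tested on simulated data.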

Additional observations from a re-analysis of the deposited data

Results flagged for a closer look

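Beta-s differed between libraries in opposite directions in different organs, and this difference between organs was not tested. For HFD-veh over NCD-veh its log2 ratio was 6.11 in WAT and 7.11 in muscle, but -1.35 in BAT and -1.47 in liver. For HFD-ncls over HFD-veh it was -6.11 in WAT and -6.27 in liver, but 1.53 in BAT. The ratios over 6 in size set a library at 7.11 FPKM or more against one under 1 fragment, so they depend on the pseudocount and are no bound on a fold. Hbb-b1 was within 2-fold in all of these except HFD-veh over NCD-veh in liver, at -1.19.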

How the results depend on the processing

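For summed beta-globin and Alas2, every log2 ratio kept its sign and moved by less than 1.5-fold with a pseudocount of 1, with libraries rescaled to the same sum or by the median ratio within an organ, with Hbb-b1 alone, and with the share of another organ subtracted (Hbb-b1 alone and all subtractions but that of liver from summed beta-globin in HFD-veh muscle were chosen after seeing the data). Without the entry of highest mean FPKM, Beta-s alone remains, and the ratio became 6.11 in WAT, -1.35 in BAT and 7.11 in muscle for HFD-veh over NCD-veh, and -6.11 in WAT, 1.53 in BAT and -6.27 in liver for HFD-ncls over HFD-veh. In WAT, liver and muscle the ratios over 6 in size set a library at 7.11 FPKM or more against one with Beta-s under 1 fragment, while in BAT every library had Beta-s and the cause was not tested. The first 10 genes by likeness shared 2 with those by Spearman correlation, 2 with those without HFD-veh muscle and 0 with organ means kept. Counts of genes over 2-fold, in the order WAT, BAT, liver and muscle, were 1112, 448, 513 and 394 for HFD-veh over NCD-veh. They became 620, 218, 280 and 254 with a pseudocount of 1, 1933, 916, 1026 and 950 with no filter, and 547, 207, 279 and 137 with an FPKM of at least 5. For HFD-ncls over HFD-veh the counts were 207, 203, 230 and 368, which became 91, 114, 98 and 260, then 696, 615, 657 and 924, and then 68, 80, 86 and 146. The planned settings with alpha-globin alone, and the alpha to beta ratio without Beta-s, were not run, since alpha-globin was not analysed here. No paired analysis was possible because the labels give no replicate numbers. With 1 library per group, a difference of group and one between single animals or pieces of tissue cannot be told apart, and the depth of about 18600000 to 26200000 fragments limits red-cell genes under 1 FPKM.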
